A study of Mus musculus with 2 samples.

Results

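The 37 genes of the mouse mitochondrial genome were taken as all genes on chromosome M of the GENCODE M21 annotation, out of 55487 gene IDs in the count table. They comprise 13 protein-coding genes, 2 ribosomal RNA genes and 22 transfer RNA genes, and each of them had a row in the table. Their counts were read in 2 RNA-seq libraries of small peritoneal macrophages, sorted from the abdominal cavity of male SWISS mice, an outbred stock, aged 5 weeks. For the LPS+LCC-12 library, 66967 cells were pooled from 8 mice that received 20 mg/kg lipopolysaccharide (LPS, from Escherichia coli) and 30 mL/kg saline, with 0.3 mg/kg LCC-12 given into the peritoneum 6 h after LPS. For the LPS library, 102283 cells were pooled from 7 mice with the same LPS and saline and no LCC-12. Both pools were collected 22 h after LPS, and mice that received no LPS were not analysed here. LCC-12 is a small molecule known to act on mitochondrial copper. Each group is 1 library of pooled animals, so the values below compare 2 libraries, with no test and no measure of the spread between mice.

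The mitochondrial genome is a small circle, and both of its strands are transcribed into long precursor RNAs. Most genes lie on 1 strand and are cut from the precursor at the transfer RNAs that stand between them. The proteins are subunits of complexes I, III and IV of the respiratory chain and of ATP synthase (complex V), and 2 of them, mt-Co1 and mt-Co2, hold the copper of complex IV. The 2 ribosomal RNAs and 22 transfer RNAs serve translation inside the organelle. Genes on the plus strand of the annotation are called heavy-strand genes here and number 28. The 9 genes on the minus strand, mt-Nd6 and 8 transfer RNAs, are called light-strand genes.

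The libraries held 47721888 counts (LPS+LCC-12) and 50618409 counts (LPS). Across the 13482 genes with at least 50 counts in the higher library, the median log2 ratio (LPS+LCC-12 over LPS, after TMM scaling) was 0.02. The sort label was set against marker genes. Small peritoneal macrophage markers summed to 707.2 counts per 1000000 scaled counts (CPM) in the LPS+LCC-12 library and 480.2 CPM in the LPS library, with 6 of 7 at least 2-fold higher with LCC-12. The exception, Ccr2, held most of both sums, at 360.4 CPM with LCC-12 and 365 CPM with LPS alone. Large peritoneal macrophage markers summed to 670 CPM with LCC-12 and 123.7 CPM with LPS alone, with 5 of 6 at least 2-fold higher with LCC-12. Neutrophil markers summed to 5402 CPM with LCC-12 and 13743.3 CPM with LPS alone, and 9 of 12 were at least 2-fold lower with LCC-12. Monocyte markers summed to 2800 CPM with LCC-12 and 4139 CPM with LPS alone, and 4 of 6 were at least 2-fold lower with LCC-12. The macrophage list summed to 8581 CPM with LCC-12 and 7351 CPM with LPS alone, with none of its 8 genes past 2-fold. The B cell list summed to 170.7 CPM with LCC-12 and 148.1 CPM with LPS alone, likewise with none of 5 past 2-fold. Mast cell (5.313 against 15.18 CPM), mesothelial (1.323 against 7.649 CPM), fibroblast (3.639 against 12.37 CPM) and T and NK cell markers (1.881 against 3.604 CPM) were low, with Wt1, Pdgfra and Nkg7 at 0 counts in the LPS+LCC-12 library. The mitochondrial values below come from these whole mixtures, in which fewer cells of a type and less RNA per cell cannot be told apart, and the part of these markers in them was not tested.

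Mitochondrial RNA took a slightly larger share of the LPS+LCC-12 library, and the sums of the 2 strands, taken without a filter, lay on opposite sides of 0. The 37 genes together held 3752361 counts in the LPS+LCC-12 library, or 7.86% of its total (95% exact Clopper-Pearson interval 7.855 to 7.871), and 3540118 counts in the LPS library, or 6.99% (6.987 to 7.001). The log2 ratio of these sums was 0.13. Of these counts, 3345866 with LCC-12 and 3175496 with LPS alone were from the 2 ribosomal RNAs, which are heavy-strand genes. The 28 heavy-strand genes summed to a log2 ratio of 0.13 (0.13 to 0.13). The 9 light-strand genes had 16540 counts with LCC-12 and 21058 with LPS alone, nearly all from mt-Nd6, and a log2 ratio of -0.30 (-0.33 to -0.27). The strand sums thus mostly set ribosomal RNA against mt-Nd6, in libraries depleted of ribosomal cDNA. All intervals given here hold no more than counting error, and amplified copies of a molecule are not independent of each other. Of the 37 genes, 17 reached 50 counts in at least 1 library (10 messenger RNAs, 2 ribosomal RNAs and 5 transfer RNAs), and 20 did not. Above 0 were 12 of 17 genes, or 70.6%, beside 52.4% of all genes with that many counts, and below 0 were 5 of 17, beside 47.6%. By a rule of at least 2-fold, 0 of the 17 genes were higher with LCC-12, beside 4.01% of all genes, and 1, mt-Ts1, was lower, which is 5.88% beside a background of 6.65%. That share is near the background, and the differences described below are mostly small. At 1.5-fold 0 of the 17 were higher, beside 9.67% of all genes, and 2, mt-Ts1 and mt-Tq, were lower, beside 13.3%. Of the 5 light-strand genes 3, mt-Ts1, mt-Tq and mt-Ty, reached 50 counts in the LPS library alone, so the filter fixed their side of 0 and the counts of genes above or below 0 are no support for a difference between strands.

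**Figure D1:**
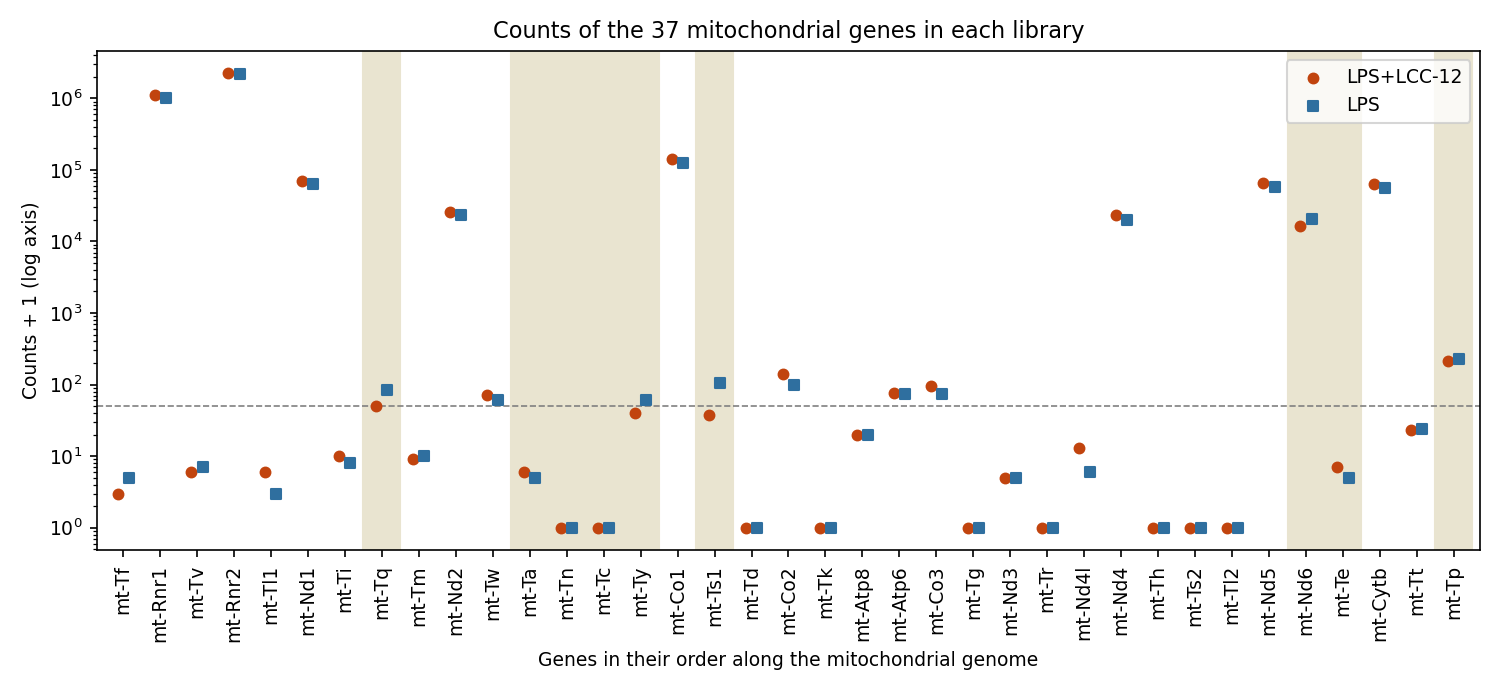
Counts plus 1 (log axis) of the 37 mitochondrial genes in their order along the genome, with circles for the LPS+LCC-12 library and squares for the LPS library; shaded genes lie on the light strand and the dashed line marks 50 counts. The ribosomal RNAs have 1007686 counts or more, 7 messenger RNAs lie between 16190 and 141349 counts, and the genes from mt-Td to mt-Nd4l hold at most 138.

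Nearly all protein-coding counts of the mitochondrial genome came from 6 heavy-strand messenger RNAs and mt-Nd6, and the 6 were higher in the LPS+LCC-12 library by almost the same ratio. The 12 heavy-strand messenger RNAs summed to 389834 counts in the LPS+LCC-12 library, or 0.817% of all counts, and to 343453 counts in the LPS library, or 0.679%. Their summed log2 ratio was 0.23 (interval 0.22 to 0.24), a 1.17-fold difference. Over the 6 genes with more than 1000 counts, single log2 ratios ran from 0.21 to 0.27, a range of 0.06. Of the 13482 genes, 29.3% had a ratio at or above the lowest of these 6, as had 17.0% of those with a mean of 10000 counts or more. The size is thus not rare among nuclear genes, whereas the narrow range is a description of these 6 genes. All 6 were above 0, beside 42.2% of the 875 genes with a mean of 10000 counts or more.

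Complex I, the NADH dehydrogenase that feeds electrons into the chain, has 4 of those 6 genes. mt-Nd1, a membrane subunit, had 70833 counts in the LPS+LCC-12 library and 62595 in the LPS library, a log2 ratio of 0.22 (0.21 to 0.24). mt-Nd2, which forms part of the membrane arm, had 25993 counts with LCC-12 and 23131 with LPS alone, a log2 ratio of 0.21 (0.19 to 0.24). mt-Nd4, another membrane arm subunit, had 23239 counts with LCC-12 and 19889 with LPS alone, a log2 ratio of 0.27 (0.24 to 0.30). The largest subunit of that arm, mt-Nd5, had 64472 counts in the LPS+LCC-12 library and 57389 in the LPS library, a log2 ratio of 0.21 (0.20 to 0.23). Each of the 4 was higher with LCC-12 beyond its counting interval. Summed with mt-Nd3 and mt-Nd4l, the heavy-strand complex I messenger RNAs had a log2 ratio of 0.23 (0.22 to 0.23).

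Complexes III and IV stood at the same ratio. mt-Cytb, the cytochrome b of complex III, had 63605 counts in the LPS+LCC-12 library and 55796 in the LPS library, a log2 ratio of 0.24 (0.22 to 0.25). mt-Co1, the catalytic subunit of complex IV, had 141349 counts with LCC-12 and 124382 with LPS alone, a log2 ratio of 0.23 (0.22 to 0.24). It was the most abundant messenger RNA per length, at 1891 CPM per kilobase in the LPS+LCC-12 library and 1612 in the LPS library. By the same measure of level, mt-Nd1 followed at 1530 with LCC-12 and 1310 with LPS alone, mt-Cytb at 1149 and 976.6, mt-Nd5 at 730.8 and 630, mt-Nd2 at 517.7 and 446.2, and mt-Nd4 at 348.7 and 289. The order of these 6 levels was the same in both libraries.

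The 3 other heavy-strand messenger RNAs that reached 50 counts had wide intervals. mt-Co2, which binds the other copper centre of complex IV, had 138 counts in the LPS+LCC-12 library and 98 in the LPS library, a log2 ratio of 0.54 (0.16 to 0.93). mt-Co3, the complex IV subunit with no metal, had 94 counts with LCC-12 and 73 with LPS alone, a log2 ratio of 0.41 (-0.05 to 0.87). mt-Atp6, the ATP synthase subunit of the proton channel, had 76 counts with LCC-12 and 72 with LPS alone, a log2 ratio of 0.12 (-0.36 to 0.61). mt-Co2 alone of these lay above 0 beyond its counting interval, which also holds the common ratio of the 6 abundant genes. The remaining messenger RNAs were close to the detection floor. mt-Atp8, a small ATP synthase subunit whose gene shares 43 bases with mt-Atp6, had 19 counts in each library, mt-Nd3 had 4 in each, and mt-Nd4l had 12 counts with LCC-12 and 5 with LPS alone, with an interval that holds 0. mt-Nd3 and mt-Nd4l are membrane subunits of complex I.

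These scarce messenger RNAs lie side by side, in a stretch of the mitochondrial genome that has an annotated copy in the nuclear genome. On the minus strand of chromosome 1 (chr1:24611535-24616197, GRCm38) 7 pseudogenes follow the order of the mitochondrial stretch from base 6381 to base 11042, with an offset of at most 1 base over 4662 bases. Wholly inside it lie 11 members, namely the 6 messenger RNAs from mt-Co2 to mt-Nd4l and the transfer RNAs mt-Ts1, mt-Td, mt-Tk, mt-Tg and mt-Tr. Gm28661 matched mt-Co2 at 681 of 681 bases, Gm10925 matched mt-Atp6 at 678 of 678, Gm28437 matched mt-Co3 at 783 of 783, and Gm10222 matched mt-Nd4l at 294 of 294. Gm28439 matched the first 876 bases of mt-Nd4 without a difference, and Gm29216 matched the last 492 bases of mt-Co1 at 486. Gm28438 differed from mt-Nd3 at 1 of 345 bases, the substitution T3C, counted from 1 at the first base of the gene. The start of that pair is shown because it holds the only base at which the annotated copy and the gene differ, from chrM:9459-9548 on the plus strand and chr1:24613030-24613119 on the minus strand, with the differing base in capitals.
mt-Nd3: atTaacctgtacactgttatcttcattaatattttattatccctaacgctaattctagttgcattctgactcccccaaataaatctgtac
Gm28438: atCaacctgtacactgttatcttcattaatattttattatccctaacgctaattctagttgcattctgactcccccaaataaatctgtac

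A more diverged copy is set beside it. Gm13339 on chromosome 2 matched 493 of the last 510 bases of mt-Nd2, with 17 substitutions. A stretch with 6 of them is printed from chrM:4685-4774 on the plus strand and chr2:22590201-22590290 on the minus strand, with the differing bases in capitals. All sequences are GENCODE M21 transcripts on GRCm38, written 5′ to 3′.
mt-Nd2: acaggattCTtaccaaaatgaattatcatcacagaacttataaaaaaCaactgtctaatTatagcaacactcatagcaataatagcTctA
Gm13339: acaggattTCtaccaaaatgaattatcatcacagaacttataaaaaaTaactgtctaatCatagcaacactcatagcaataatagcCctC

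The 5 messenger RNAs with exact copies over nearly their whole length had low levels. Among the 7 abundant ones there was no steady order. Per kilobase, mt-Nd4, with the largest copied share, was lowest, but mt-Co1, with the next largest, was highest. Each gene was read in windows of 100 bases, the read length, and each window was looked for in every other annotated transcript on both strands. An exact copy was found for 99.5% of windows of mt-Co2, 99.5% of mt-Atp6, 99.9% of mt-Co3, 98.5% of mt-Nd4l and 97.6% of mt-Nd3. These 5 genes had 4 to 138 counts in the LPS+LCC-12 library and 4 to 98 in the LPS library, or 0.238 to 4.17 and 0.230 to 2.87 CPM per kilobase. The share was 60.8% for mt-Nd4, 30.8% for mt-Co1, 3.20% for mt-Nd2 and 0 for mt-Nd1, mt-Nd5, mt-Nd6 and mt-Cytb. Those 7 genes had 16190 to 141349 counts with LCC-12 and 19889 to 124382 with LPS alone, so the ranges did not overlap in either library. mt-Atp8 had few counts and no such window. Of its bases, 161 lie between annotated copies, as do those transfer RNAs, and the nuclear sequence there was not searched. How reads that fit several places were counted is not given in the sources used here, and the part of the copies in these low counts was not tested.

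**Figure D2:**
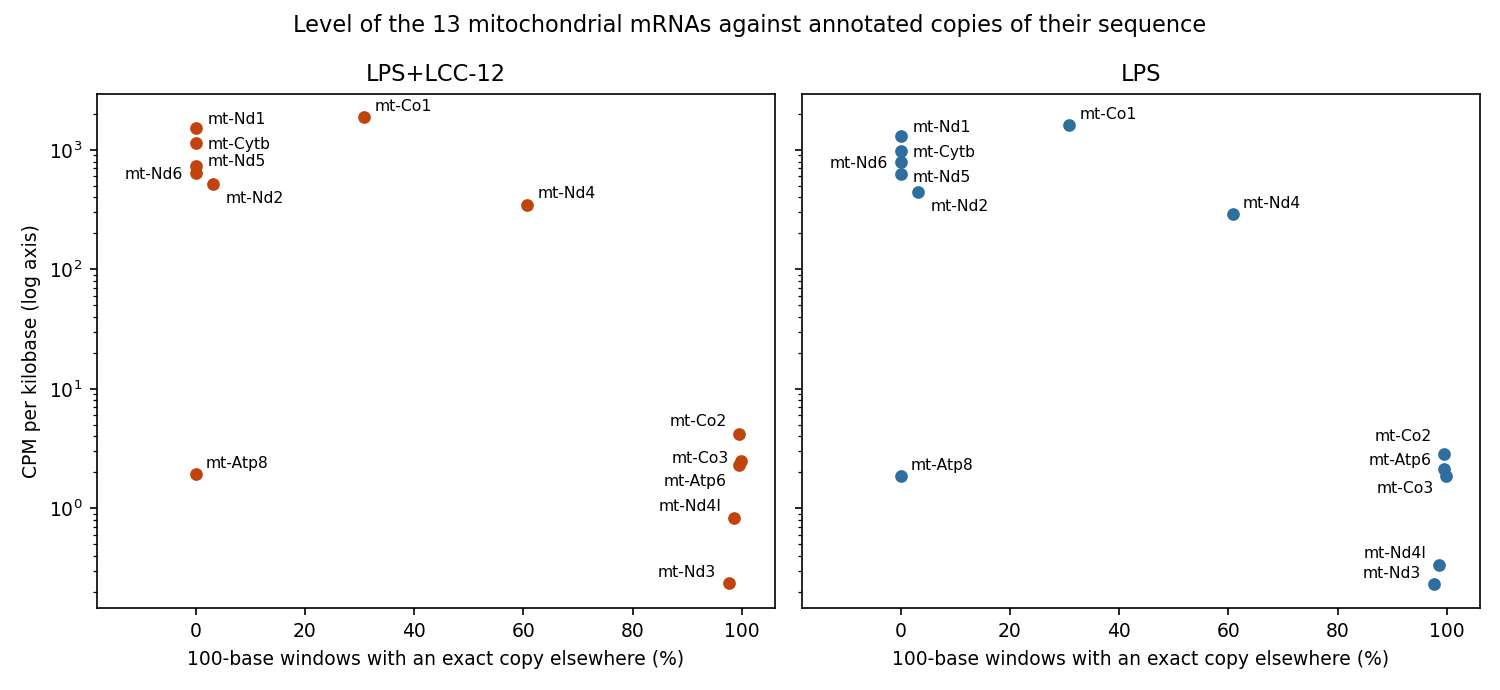
Level of each mitochondrial messenger RNA (CPM per kilobase, log axis) against the share of its 100-base windows that occur exactly in another annotated transcript, for the LPS+LCC-12 library (left) and the LPS library (right). The 5 genes with more than 97% of windows copied lie below 5 CPM per kilobase, and mt-Nd4, at 60.8%, lies at 348.7 with LCC-12 and 289 with LPS alone.

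All counts of a gene were also divided by its number of windows without an exact copy. That scale takes reads from copied windows as not counted, which is not known here. It raises genes with many copied windows, such as mt-Nd4, by construction. On it, mt-Nd4 was no longer the lowest of the abundant genes. It had 46.29 counts per window without a copy in the LPS+LCC-12 library and 39.62 in the LPS library. These values were above those of mt-Nd5 (37.38 with LCC-12 and 33.27 with LPS alone) and mt-Nd2 (28.6 and 25.45). mt-Co1 stayed the highest, at 141.3 counts per window with LCC-12 and 124.4 with LPS alone. Some scarce genes also rose among the abundant ones, on very few uncopied windows. mt-Co3 came to 94 and 73 from 1 window, and mt-Co2 (46 and 32.67) and mt-Atp6 (25.33 and 24) rested on 3 each. mt-Nd4l (4 and 1.667), mt-Nd3 (0.6667 in both) and mt-Atp8 (0.181 in both) stayed low.

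The pseudogenes themselves held few counts, with 1 exception. Gm28438, the copy of mt-Nd3, had 822 counts in the LPS+LCC-12 library and 436 in the LPS library, a log2 ratio of 0.96 (0.79 to 1.13), just short of 2-fold. mt-Nd3 itself had 4 counts in each library. Gm10925 had 152 counts with LCC-12 and 136 with LPS alone, Gm29216 had 105 and 109, Gm28661 had 81 and 95, and Gm28437 had 62 and 69. Of the 10 pseudogenes on the list, 6 reached 50 counts and 2 of these lay above 0, with a median log2 ratio of -0.06. With a minimum of 10 counts the median was 0.21, and the counts of all 10 summed to a log2 ratio of 0.53 (0.41 to 0.65), so the median's sign depends on the filter. Adding each copy to its gene gave 219 counts with LCC-12 and 193 with LPS alone for mt-Co2, a log2 ratio of 0.23 (-0.06 to 0.52), so the higher value of mt-Co2 no longer lay beyond its interval. The sum for mt-Nd3 and Gm28438 was 826 counts with LCC-12 and 440 with LPS alone, a log2 ratio of 0.95. Whether those counts come from the mitochondrial or the nuclear sequence cannot be told apart here.

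On the light strand, the messenger RNA mt-Nd6 ran the other way. mt-Nd6, a complex I subunit and the only protein-coding gene on that strand, had 16190 counts in the LPS+LCC-12 library and 20577 in the LPS library. Its log2 ratio was -0.30 (-0.33 to -0.27), lower with LCC-12 beyond the counting interval. Of all 13482 genes, 23.3% had a ratio at or below it, as had 26.9% of those with a mean of 10000 counts or more. Within the libraries, where scaling cancels, mt-Nd6 made up 3.99% of mitochondrial messenger RNA counts with LCC-12 (3.93 to 4.05) and 5.65% with LPS alone (5.58 to 5.73). Against the 12 heavy-strand messenger RNAs the log2 difference between libraries was therefore -0.53 (-0.56 to -0.50). Against each of its neighbours the value was close to that. It was 20.1% of the counts of mt-Nd6 and mt-Nd5 together in the LPS+LCC-12 library and 26.4% in the LPS library, a log2 difference of -0.51 (-0.55 to -0.48). Against mt-Cytb, on its other side, the log2 difference was -0.53 (-0.57 to -0.50).

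mt-Nd6 also differs from the other messenger RNAs in base composition. It has 28.1% G and 5.97% C, where the 12 heavy-strand messenger RNAs have 5.88 to 16.1% G and 22.1 to 30.0% C. Its last 60 bases (chrM:13552-13611, minus strand) are printed because their final 14, in capitals, are also the end of mt-Nd5 read from the opposite strand.
mt-Nd6 3′ end: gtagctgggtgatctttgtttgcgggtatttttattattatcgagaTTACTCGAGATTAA
The library kit keeps strand, but its use in counting is not given in the sources used here, so RNA of mt-Nd6 and RNA of the opposite strand across the same bases cannot be told apart. Most of the larger gene classes other than protein-coding genes were also lower with LCC-12. The 269 antisense genes with 50 counts had a median log2 ratio of -0.45, with 73 above 0, the 312 lincRNA genes had a median of -0.42, with 94 above 0, and the 11220 protein-coding genes had a median of 0.05. Medians were -0.23 for sense intronic genes, -0.19 for processed transcripts, -0.19 for genes of the class TEC and -0.08 for processed pseudogenes. For snoRNA genes the median was 0.05. Among nuclear-retained RNAs, Malat1 had a log2 ratio of -0.18, Neat1 of -0.25 and Kcnq1ot1 of 0.04. The part of such differences in the value of mt-Nd6 was not tested.

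**Figure D3:**
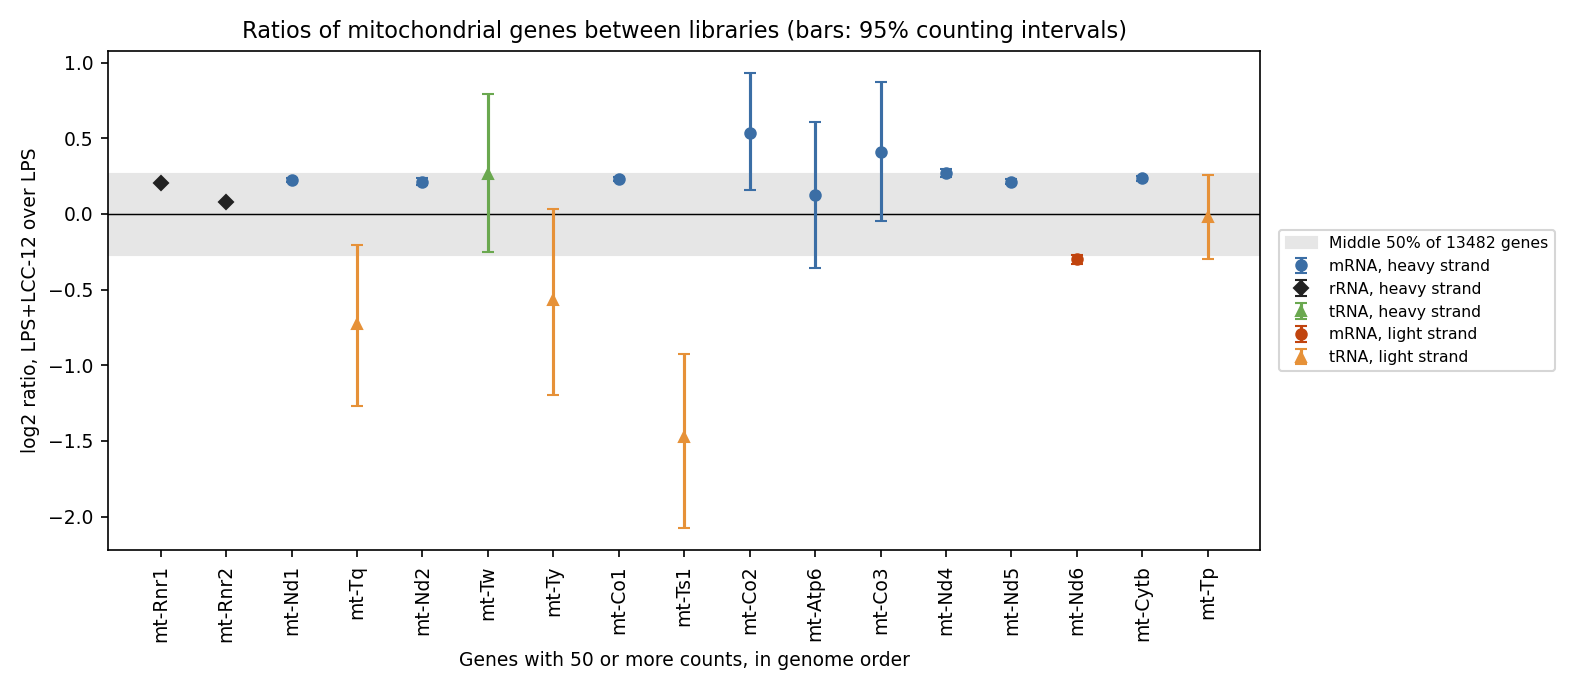
Log2 ratio (LPS+LCC-12 over LPS) of the 17 mitochondrial genes with at least 50 counts in the higher library, in genome order, with 95% counting intervals; the band holds the middle 50% of 13482 genes. The 12 heavy-strand genes lie between 0.08 and 0.54, and the 5 light-strand genes lie between -1.47 and -0.02, of which mt-Tq, mt-Ty and mt-Ts1 passed the filter through the LPS library alone.

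Transfer RNA genes held few counts, and most of these were assigned to genes annotated on the light strand. As for mt-Nd6, the use of strand in counting is not given, so RNA of the opposite strand across the same bases cannot be told apart. All transfer RNA genes here are 59 to 75 bases long, shorter than a read. Whether their counts come from cut transfer RNAs or from longer RNA that holds them was not tested. The ratios below are thus ratios of counts at these genes. The 8 light-strand transfer RNAs summed to 350 counts in the LPS+LCC-12 library and 481 in the LPS library, a log2 ratio of -0.41 (-0.62 to -0.21), with no filter on counts. The 14 heavy-strand transfer RNAs summed to 121 counts with LCC-12 and 111 with LPS alone, a log2 ratio of 0.17 (-0.21 to 0.56). Light-strand genes made up 74.3% of transfer RNA counts with LCC-12 (70.1 to 78.2) and 81.2% with LPS alone (77.9 to 84.3), a log2 difference of -0.58 (-1.02 to -0.15). The light-strand sum thus lay below 0 beyond its interval, and the heavy-strand sum did not lie beyond its own.

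The 5 transfer RNA genes that reached 50 counts are printed in genome order because they hold most of the transfer RNA counts. Capitals mark bases that also lie inside a neighbouring gene. mt-Tq (glutamine) is at chrM:3772-3842 on the minus strand, mt-Tw (tryptophan) at chrM:4950-5016 on the plus strand, mt-Ty (tyrosine) at chrM:5260-5326, mt-Ts1 (a serine transfer RNA) at chrM:6870-6938 and mt-Tp (proline) at chrM:15356-15422, the last 3 on the minus strand.
mt-Tq: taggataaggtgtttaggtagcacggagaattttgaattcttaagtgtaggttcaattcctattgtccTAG
mt-Tw: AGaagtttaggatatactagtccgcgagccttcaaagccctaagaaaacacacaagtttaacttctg
mt-Ty: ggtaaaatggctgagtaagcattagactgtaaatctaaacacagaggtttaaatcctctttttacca
mt-Ts1: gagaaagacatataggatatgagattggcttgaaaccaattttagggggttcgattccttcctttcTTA
mt-Tp: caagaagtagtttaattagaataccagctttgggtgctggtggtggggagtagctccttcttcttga

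Counts of single light-strand transfer RNA genes differed in their ratios, and the part of longer RNA in them was not tested. mt-Ts1, whose last 3 bases lie opposite the end of mt-Co1, had 36 counts in the LPS+LCC-12 library and 104 in the LPS library, a log2 ratio of -1.47 (-2.07 to -0.93), or 2.77-fold lower. It lies in the stretch with pseudogenes on chromosome 1, between the copies of mt-Co1 and mt-Co2, and the part of nuclear sequence in its counts was not tested. mt-Tq had 49 counts with LCC-12 and 84 with LPS alone, a log2 ratio of -0.73 (-1.27 to -0.21). mt-Ty had 39 counts with LCC-12 and 60 with LPS alone, a log2 ratio of -0.57 (-1.20 to 0.03), an interval that holds 0. These 3 reached 50 counts in the LPS library alone, so their place below 0 among the genes that passed is no support for a strand difference. Of the 13482 genes, 3.0% had a ratio at or below that of mt-Ts1. mt-Tp, which alone had most of the light-strand transfer RNA counts in the LPS+LCC-12 library, had 215 there and 225 in the LPS library, a log2 ratio of -0.02 (-0.30 to 0.26). Without it the other 7 summed to 135 counts with LCC-12 and 256 with LPS alone, a log2 ratio of -0.87 (-1.19 to -0.57). Most of those counts were from mt-Ts1, mt-Tq and mt-Ty. The heavy-strand mt-Tw had 70 counts with LCC-12 and 60 with LPS alone, a log2 ratio of 0.27 (-0.25 to 0.79).

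Set against heavy-strand neighbours in the same library, the light-strand transfer RNAs kept their order. The neighbours mt-Co1, mt-Nd1 and mt-Cytb had nearly equal log2 ratios (0.22 to 0.24), so that order could hardly change. mt-Ts1, mt-Tq and mt-Ty passed the filter through the LPS library alone, so their values below 0 are no support for a strand difference here either. The log2 difference was -1.71 (-2.30 to -1.16) for mt-Ts1 against mt-Co1, -0.96 (-1.50 to -0.43) for mt-Tq against mt-Nd1 and -0.81 (-1.43 to -0.20) for mt-Ty against mt-Co1. For mt-Tp against mt-Cytb it was -0.25 (-0.53 to 0.02), and for the heavy-strand mt-Tw against mt-Nd2 it was 0.05 (-0.46 to 0.58). Within the light strand, the 7 transfer RNAs other than mt-Tp had a log2 difference against mt-Nd6 of -0.58 (-0.89 to -0.27). mt-Tp had one of 0.28 (0.00 to 0.56). Most counts of those 7 were from mt-Ts1, mt-Tq and mt-Ty, so their value mainly describes these genes, and it leaves out the near-even mt-Tp. Light-strand transcription is known to start in the control region, to meet mt-Tp before the other genes and to run through mt-Nd6 towards mt-Ts1, mt-Ty and mt-Tq. In that order the log2 ratios between libraries were -0.02, -0.30, -1.47, -0.57 and -0.73. The light-strand mt-Te (glutamate), between mt-Tp and mt-Nd6, had 6 counts with LCC-12 and 4 with LPS alone, a log2 ratio of 0.57 (-1.45 to 2.90). mt-Ta (alanine), between mt-Ty and mt-Tq, had 5 counts with LCC-12 and 4 with LPS alone, a log2 ratio of 0.33 (-1.85 to 2.70), so both lay above 0 with intervals that hold 0.

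**Figure D4:**
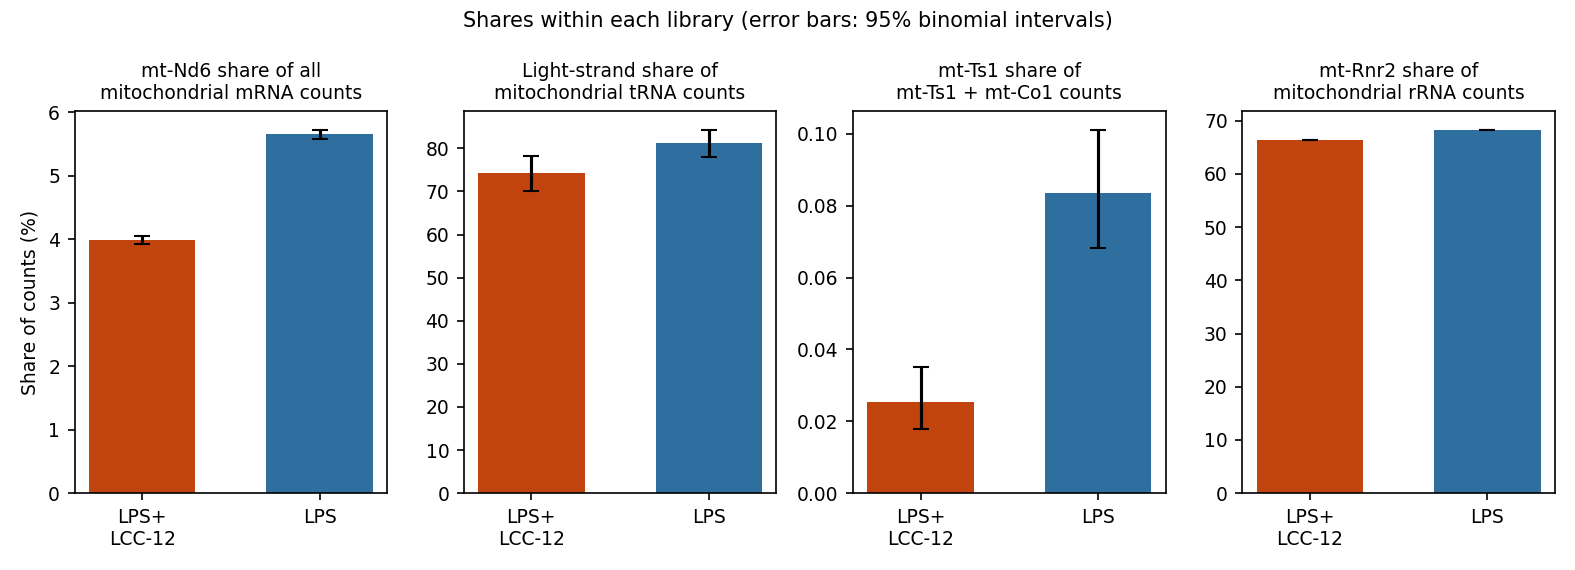
Shares within each library with 95% exact binomial intervals, LPS+LCC-12 left and LPS right in each panel: mt-Nd6 among mitochondrial messenger RNA counts, light-strand genes among transfer RNA counts, mt-Ts1 among mt-Ts1 and mt-Co1 counts, and mt-Rnr2 among ribosomal RNA counts. Each share is lower with LCC-12, and the transfer RNA intervals (70.1 to 78.2% with LCC-12 and 77.9 to 84.3% with LPS alone) overlap slightly. mt-Ts1 passed the count filter through the LPS library alone, so its panel is no support for a strand difference.

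The free sequence beside the transfer RNAs was set against their counts. The 5 genes with at least 50 counts have 311 or more bases without a same-strand gene on 1 side, with 6613 bases beside mt-Ts1. The 9 transfer RNAs with 0 counts in both libraries (mt-Tn, mt-Tc, mt-Td, mt-Tk, mt-Tg, mt-Tr, mt-Th, mt-Ts2 and mt-Tl2) have at most 69, and 7 of them are on the heavy strand. A count of 0 allows up to 0.0620 CPM in the LPS+LCC-12 library and 0.0601 CPM in the LPS library (3 counts). The other 8, which had 2 to 23 counts, have 0 to 1216 free bases on the sides measured, so the groups overlap in this measure. The measure stops at the ends of the numbering of the circle. For mt-Tf and mt-Tt of the 8, and mt-Tq and mt-Tp of the 5, 1 side was thus not measured. Among the 8, mt-Tv (valine), with 5 counts with LCC-12 and 6 with LPS alone, has 0 free bases on either side. mt-Tt (threonine), with 1 side not measured, had the most counts of the 8, at 22 with LCC-12 and 23 with LPS alone.

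Ribosomal RNAs held most mitochondrial counts. mt-Rnr1, the small subunit ribosomal RNA, had 1124612 counts in the LPS+LCC-12 library and 1007686 in the LPS library, a log2 ratio of 0.20 (0.20 to 0.21). mt-Rnr2, that of the large subunit, had 2221254 counts with LCC-12 and 2167810 with LPS alone, a log2 ratio of 0.08 (interval 0.08 to 0.08). Both were higher with LCC-12, mt-Rnr2 by less. mt-Rnr2 stood at 1.98 counts per count of mt-Rnr1 with LCC-12 and 2.15 with LPS alone, a log2 difference of -0.12 (-0.13 to -0.12). Per count of heavy-strand messenger RNA there were 8.58 ribosomal RNA counts with LCC-12 and 9.25 with LPS alone, a log2 difference of -0.11. The libraries went through depletion of ribosomal cDNA, per the labels' protocols. Its residue also differed, since the cytosolic ribosomal RNA genes Gm26917 and Gm42418 had log2 ratios of 0.53 and 0.20, with a list sum of 44056.4 CPM with LCC-12 and 32229.6 CPM with LPS alone. AY036118, on the same list, was at 0 in both libraries. The part of depletion in the mitochondrial ribosomal RNA values was not tested.

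Nuclear genes that serve the mitochondrial genome were close to even, with more of them slightly higher with LCC-12. Of 148 such genes on 11 lists, 147 reached 50 counts and 111 of these, or 75.5%, were above 0, beside 52.4% of all genes, with a median log2 ratio of 0.13. None was 2-fold higher, beside 4.01% of all genes, and 1 was 2-fold lower, beside 6.65%. The 74 nuclear subunits of the respiratory complexes and ATP synthase had a median of 0.16, with 59 above 0. Their medians by complex were 0.10 for complex I (25 of 36 above 0), 0.21 for complex II (4 of 4), 0.16 for complex III (7 of 9), 0.18 for complex IV (9 of 10) and 0.18 for ATP synthase (14 of 15). Complex II, which is entirely encoded in the nucleus, had Sdha at 0.18, Sdhc at 0.35 and Sdhd at 0.15. Among the most counted subunits of complexes III to V, log2 ratios were 0.18 for Uqcrc1 of complex III, 0.17 for Cox6c of complex IV and 0.24 for Atp5a1 of ATP synthase. The highest subunits of complexes I, III, IV and V were Ndufa11 at 0.51, Uqcrc2 at 0.44, Cox5a at 0.48 and Atp5g2 at 0.58, and the lowest were Ndufs5 at -0.26, Uqcrq at -0.09, Cox8a at -0.03 and Atp5e at -0.25.

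Genes for transcription of the mitochondrial genome lay on both sides of 0. Of 9 listed, 8 reached 50 counts and 3 were above 0, with a median of -0.04. Polrmt, the RNA polymerase that reads both strands, had 1106 counts in the LPS+LCC-12 library and 1186 in the LPS library, a log2 ratio of -0.05 (-0.17 to 0.06). Tfb2m, the initiation factor that opens the promoter, had 577 counts with LCC-12 and 413 with LPS alone, a log2 ratio of 0.53 (0.34 to 0.71). Mterf4, a family member that acts in ribosome assembly, was the lowest at -0.27. Replication genes had a median of 0.16 with 6 of 7 above 0, and included the polymerase Polg at 0.02, the nuclease Mgme1 at 0.24 and the topoisomerase Top1mt at -0.07.

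Processing genes lay on both sides of 0 as well. The 7 genes for cleavage of the precursor and for transfer RNA ends had a median of -0.01 with 3 above 0. Trmt10c, a subunit of the RNase P that cuts at the 5′ side of transfer RNAs, stood at 0.29, and Trnt1, which adds the CCA end, at -0.24 (-0.33 to -0.14). The 14 genes for stability, polyadenylation and decay had a median of 0.04 with 9 above 0. Lrpprc and Slirp, partners that stabilise mitochondrial messenger RNAs, stood at 0.21 and 0.43, and Fastkd5, which acts on junctions without a transfer RNA, at -0.47 with 69 counts in the LPS+LCC-12 library and 99 in the LPS library. The 15 genes for base modification had a median of 0.11 with 12 above 0, among them Alkbh1 at 0.23, the ribosomal RNA methylase Nsun4 at 0.27 and the transfer RNA modifier Cdk5rap1 at -0.30. Of the 22 genes for charging transfer RNAs, 19 were above 0, with a median of 0.12. Lars2, the leucine enzyme, stood at 0.05, and Gatc, a subunit of the complex that forms glutaminyl transfer RNA, at 0.77. Nars2, the asparagine enzyme, was the 1 gene of all 11 lists past 2-fold, with 515 counts in the LPS+LCC-12 library and 1300 in the LPS library, a log2 ratio of -1.29 (-1.44 to -1.14).

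**Figure D5:**
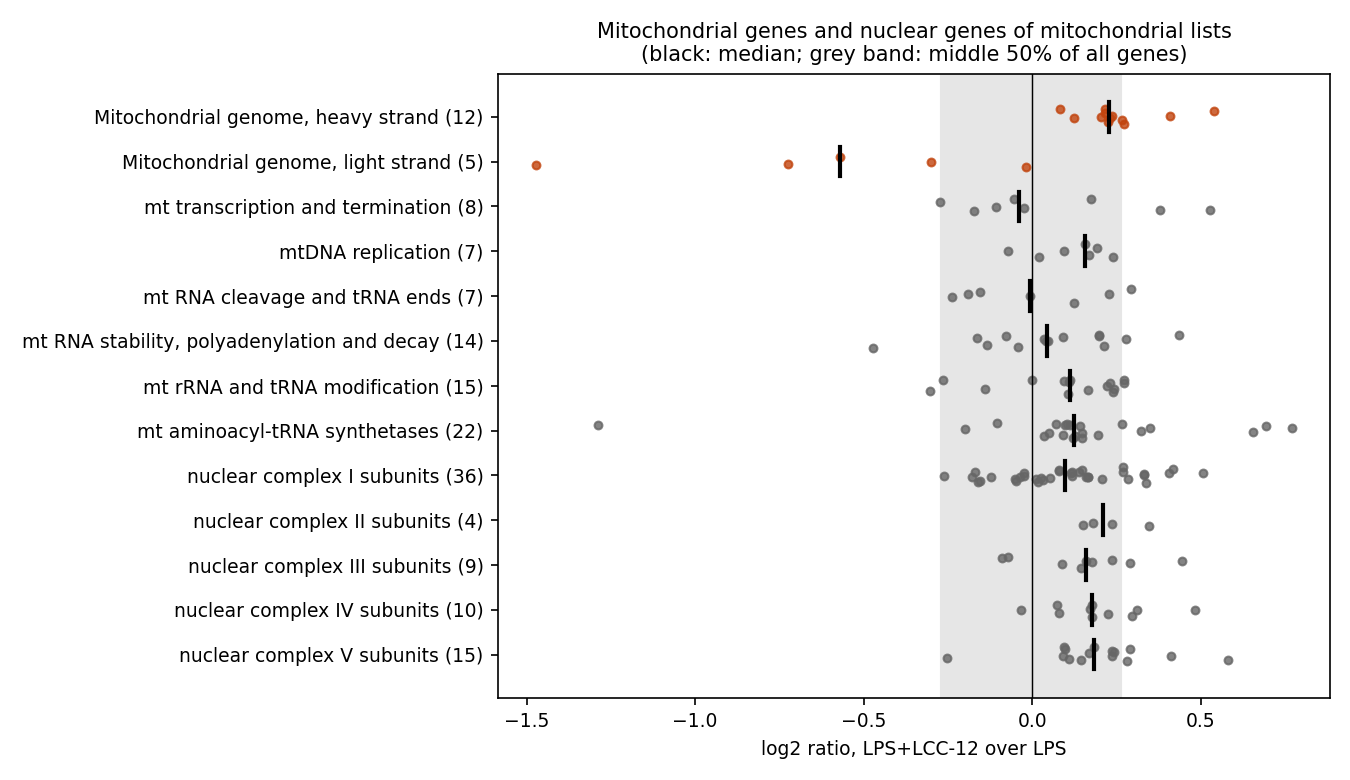
Log2 ratio (LPS+LCC-12 over LPS) of mitochondrial genes by strand and of nuclear genes on the 11 mitochondrial lists, 1 point per gene with at least 50 counts, black ticks for medians and a band for the middle 50% of all genes. List medians of the nuclear genes lie between -0.04 and 0.21, and the 5 light-strand genes, 3 of which passed the filter through the LPS library alone, run from -1.47 to -0.02.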

How the data were processed

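The authors deposited raw, whole-number counts per gene without normalization, in 1 column per library. Per the submitters' processing notes, STAR and mm10 were used. Not given in the sources used here are the aligner's version, the counting tool, its use of strand, its treatment of reads with several matches and the annotation. Per the labels' protocols, total RNA was fragmented, made into stranded libraries, depleted of ribosomal cDNA and read as pairs of 100 bases, whereas the molecule field names polyA RNA.

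IDs were matched to GENCODE M21 on GRCm38 (mm10). Of 55487, 93 did not match, with 325 counts in the LPS+LCC-12 library and 304 in the LPS library. Scaling was by TMM (edgeR 4.0.16, R 4.3.3), with 0.5 counts added in proportion to library size. With 1 library per group no test was made. Ratios have 95% intervals from the exact binomial split of counts, ratios within libraries from the exact conditional odds ratio, and shares from Clopper-Pearson, all in Python 3.11.15 with SciPy 1.17.1. A gene past 2-fold also needed 50 counts in the higher library. The intervals were also run on simulated counts with counting error only. That run cannot show how they hold with amplified copies or spread between mice. Copies were sought among annotated transcripts, with Biopython 1.88.

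The named genes are the 37 members and, from each nuclear list, the most counted, highest and lowest gene and any past 2-fold. Not every gene so taken is reported here. The members and lists were chosen with earlier results of these data known. Alternatives were other scalings (DESeq2 1.42.0 size factors, upper quartile, totals), 5 added counts, count minimums of 10 and 1, 1.5-fold, other denominators and sums without the most counted member. Chosen after seeing the data were a median of 6 messenger RNAs for mt-Nd6, counts per uncopied window and sums of gene and copy.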

Additional observations from a re-analysis of the deposited data

How the results depend on the processing

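Other scalings moved the log2 ratios of sums without changing their sign. The heavy-strand messenger RNA ratio of 0.23 became 0.27 by total counts, 0.21 by DESeq2 size factors, 0.20 by upper quartile and 0.28 by totals without mitochondrial genes. The ribosomal RNA ratio of 0.12 became 0.16, 0.10, 0.088 and 0.17 under the same 4, and 0.20 with mt-Rnr1 alone. The light-strand ratio of -0.30 became -0.26 by total counts, -0.34 by upper quartile, -0.25 by totals without mitochondrial genes and -0.41 without mt-Nd6. The light-strand transfer RNA ratio of -0.41 became -0.87 without mt-Tp. Of 17 members under 5 alternatives, mt-Tp alone changed sign. Nuclear list medians near 0 also changed sign. That of the transcription genes, -0.04, became 0.012 by totals without mitochondrial genes. That of the cleavage and transfer RNA end genes, -0.01, became 0.032 by total counts and 0.045 by totals without mitochondrial genes. Mitochondrial messenger RNAs were 1.04% of protein-coding counts in the LPS+LCC-12 library and 0.869% in the LPS library, and 0.971% and 0.801% of counts without mitochondrial and residual ribosomal genes. Members at least 2-fold higher numbered 0 of 17, but 1 with a minimum of 10 counts and 2 with 1 count. Those lower numbered 1 of 17, but 2 at 1.5-fold. Over all 13482 genes, 896 (6.65%) were lower and 540 (4.01%) higher, and at 1.5-fold 1794 (13.3%) and 1304 (9.67%). With a minimum of 10 counts 2387 were lower and 1462 higher, and with 1 count 6439 and 4143. Lower minimums take in more genes, whose number is not given here, so members cannot be set against all genes there. Of 147 nuclear list genes, 0 were 2-fold higher, and 3 were 1.5-fold higher, beside 9.67% of all genes. At 1.5-fold 1 was lower, beside 13.3%. Against the median of the 6 abundant messenger RNAs, mt-Nd6 differed by -0.53. The cause of these shifts was not tested beyond what each setting removes. No paired analysis was possible because each group is 1 library. The list of nuclear copies had a median of -0.06, but 0.21 with a minimum of 10 counts. Low counts make the intervals of the transfer RNAs and the 6 scarce messenger RNAs wide, and a difference between mice could not be measured.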
